A study of Mus musculus with 15 samples.

Results

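Transcripts of 9 transcription factors of cortical neurogenesis, Neurog1, Neurog2, Eomes, Insm1, Neurod1, Neurod2, Neurod4, Neurod6 and Mef2c, were followed through RNA sequencing of foetal mouse cortex and cultured cortical neurons with and without Phf6, the X-linked gene mutated in Börjeson-Forssman-Lehmann syndrome. The 9 genes were chosen by name, from progenitor to neuron, out of 23132 genes in the count table after its Entrez identifiers had been matched to symbols, and all 9 were found in the table. The study asked which genes depend on PHF6 in the developing cortex and in neurons isolated from it. Dissected E15.5 cerebral cortices came from male foetuses that were Phf6+/Y (3 controls) or Phf6-/Y (5 samples, germline deletion), in litters 1 to 3. Cortical neurons from E16.5 male foetuses, plated and kept in culture for a day, were Phf6+/Y;Nes-creTg/+ (3 controls) or Phf6lox/Y;Nes-creTg/+ (4 samples), in litters 4 to 7. Under the Nes promoter, Cre acts in neural progenitors and in the cells they give rise to, and the control neurons carried the transgene as well. All mice were C57BL/6, and the deletion removes Phf6 exons 4 and 5.

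Cortical excitatory neurons arise from radial glia, often through intermediate progenitors. In the proneural cascade, Neurog1 and Neurog2, basic helix-loop-helix (bHLH) factors of progenitors, start the neuronal programme and raise Notch ligands such as Dll1. Eomes (TBR2), a T-box factor, and Insm1, a zinc finger factor, mark and act in intermediate progenitors. Neurod1 and Neurod4 are bHLH factors of cells becoming neurons, Neurod2 and Neurod6 (NEX) are bHLH factors kept by postmitotic excitatory neurons, and Mef2c is a MADS-box factor of maturing neurons. The bHLH members bind DNA in pairs with E proteins (Tcf3, Tcf4, Tcf12), and Id proteins, which lack a DNA-binding region, hold the E proteins away from them.

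The DNA letters that bHLH pairs recognise, the E-box CANNTG, were searched in the 250 bases before each RefSeq start in GRCm38.p6 (both strands read the same, since CANNTG is its own reverse complement, and CAGATG and CAGCTG are forms of it). Starts were found for 8 of the 9 members, 11 starts in all, and Insm1 was without an entry. At least 1 E-box stood in 5 of these 11 windows, against 62.8% of 21190 promoters of all genes, and the 5 belonged to Neurod1, Neurod2, Neurod6 and Mef2c. The windows of Neurog1, Neurog2, Eomes, both starts of Neurod4 and 1 start of Mef2c held none. CAGATG occurred in 2 of the 11, before Neurod2 and 1 start of Mef2c, against 12.3% of promoters, and CAGCTG in 0, against 12.5%. A match is a run of letters and was not tied to binding in these data. The windows of a proneural factor and of an intermediate progenitor factor are shown first, then those of the neuronal members with the largest levels in culture and of Mef2c, the single member past the threshold for genotype, with every E-box in capitals and the sequence read 5′ to 3′ on the strand of the gene (RefSeq, GRCm38.p6):
Neurog1 (chr13:56252181-56252430, minus strand): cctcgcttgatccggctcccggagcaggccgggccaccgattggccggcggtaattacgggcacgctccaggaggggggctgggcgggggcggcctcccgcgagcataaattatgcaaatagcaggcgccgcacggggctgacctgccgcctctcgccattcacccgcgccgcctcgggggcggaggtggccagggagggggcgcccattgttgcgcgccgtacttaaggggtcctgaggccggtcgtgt
Eomes (chr9:118477939-118478188, plus strand): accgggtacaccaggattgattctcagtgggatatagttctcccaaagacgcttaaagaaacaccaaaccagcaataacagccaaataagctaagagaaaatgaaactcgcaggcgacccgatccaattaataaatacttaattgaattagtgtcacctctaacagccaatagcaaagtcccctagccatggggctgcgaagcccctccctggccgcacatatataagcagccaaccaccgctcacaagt
Neurod2 (chr11:98329646-98329895, minus strand): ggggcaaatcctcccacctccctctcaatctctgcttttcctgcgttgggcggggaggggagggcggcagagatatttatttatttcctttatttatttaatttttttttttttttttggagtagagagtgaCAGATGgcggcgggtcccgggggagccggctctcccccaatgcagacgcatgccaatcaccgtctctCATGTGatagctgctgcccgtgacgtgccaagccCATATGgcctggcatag
Neurod6 (chr6:55681264-55681513, minus strand): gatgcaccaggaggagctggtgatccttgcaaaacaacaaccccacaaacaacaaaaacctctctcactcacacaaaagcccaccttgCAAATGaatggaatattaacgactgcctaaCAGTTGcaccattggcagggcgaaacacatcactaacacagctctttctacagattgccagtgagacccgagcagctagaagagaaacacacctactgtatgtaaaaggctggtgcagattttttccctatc
Mef2c (chr13:83503784-83504033, plus strand): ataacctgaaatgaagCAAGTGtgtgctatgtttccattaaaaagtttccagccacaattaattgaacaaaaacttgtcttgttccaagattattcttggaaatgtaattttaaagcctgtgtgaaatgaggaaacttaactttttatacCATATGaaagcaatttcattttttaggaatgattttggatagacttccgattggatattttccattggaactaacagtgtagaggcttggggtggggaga

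On GRCm38, Neurog2 occupies chromosome 3 from 127632733 to 127635636, Eomes chromosome 9 from 118478186 to 118486132, Neurod2 chromosome 11 from 98325415 to 98329645, Neurod6 chromosome 6 from 55677818 to 55681263, Insm1 chromosome 2 from 146221997 to 146225020, Neurod4 chromosome 10 from 130268152 to 130280254, and Mef2c chromosome 13 from 83504017 to 83667079. Neurog1 (chromosome 13, 56250478 to 56252180) and Neurod1 (chromosome 2, 79452637 to 79456636) complete the list. In the GENCODE annotation, Neurod1 overlaps Cerkl on the same strand and the noncoding Gm26755 on the other, and Eomes overlaps the antisense Gm33460. The strand setting of the counting is not given in the sources used here, so reads of Eomes and Gm33460, or of Neurod1 and Gm26755, cannot be told apart where they overlap. How reads in the overlap of Neurod1 and Cerkl were assigned is not given either. The span of Neurog2 begins upstream of the RefSeq start whose window was searched (127633136), so that window lies within the span.

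Each library held between 16858007 and 31157700 counted reads. Phf6 itself was at 149 to 191 CPM (reads of a gene as a share of the TMM-scaled library) in control cortices and at 42.4 to 55.2 CPM in Phf6-/Y cortices, and at 228 to 259 CPM in control neurons and at 59.9 to 85.8 CPM in Phf6lox/Y;Nes-creTg/+ neurons, so the labels and the targeted gene went together in all 15 libraries. Nothing in the labels gives pooled animals or the number of foetuses behind a library. The paper, however, counts 3 control and 5 deleted foetuses for the cortex and 3 and 4 for the neurons, as many as the libraries here. Cultured neurons carried the markers of their label, with summed neuron markers (12 genes, among them Tubb3, Dcx and Stmn2) at 10900 to 12400 CPM against 6190 to 8300 CPM in the cortex. A single library stood apart by its marker sums: Phf6-/Y replicate 1 of the cortex (litter 3) had the lowest neuron marker sum (6190 CPM), the highest radial glia sum (2440 CPM) and the highest proliferation gene sum (1610 CPM) of the 8 cortices. In these bulk samples, fewer cells of a type and less RNA per cell cannot be told apart.

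Levels between genes were compared per kilobase of counted exon (RPKM). In control cortices, Neurod6 was the most abundant of the 9 genes at 260 ± 32.6 RPKM (SD, n = 3), ahead of Neurod2 at 158 ± 9.92 RPKM. The progenitor factors followed as a block, with Neurog2 at 81.1 ± 7.87 RPKM, Insm1 at 70.9 ± 5.84 RPKM and Eomes at 66.2 ± 4.42 RPKM. Within that block the order held in each of the 3 libraries, but the ranges of neighbours over libraries overlapped. Neurod1 (22.7 ± 2.95 RPKM) and Mef2c (18.7 ± 4.12 RPKM) did not differ beyond their spread, Neurod1 being the higher in 2 of 3 libraries. Neurog1 at 5.54 ± 2.01 RPKM and Neurod4 at 2.07 ± 0.418 RPKM were the least abundant. The E15.5 cortex thus held transcripts of every step of the cascade, with the factors of postmitotic excitatory neurons the most abundant.

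In control cultured neurons the top of the order was kept, with Neurod6 at 522 ± 28.1 RPKM (SD, n = 3) and Neurod2 at 264 ± 12.4 RPKM. Mef2c had moved to the third place at 67.0 ± 14.0 RPKM and did not differ beyond its spread from Insm1 at 66.1 ± 12.4 RPKM. Neurod1 stood at 37.0 ± 0.743 RPKM, above Neurog2 at 28.2 ± 5.73 RPKM and Eomes at 23.8 ± 8.71 RPKM, which overlapped. Neurod4 (0.378 ± 0.233 RPKM) and Neurog1 (0.243 ± 0.110 RPKM) were close to the floor, with 10 to 62 reads per library for Neurod4 and 2 to 16 for Neurog1 over all 7 neuron libraries. Neurod6 and Eomes were set against each other as a ratio per kilobase, which describes these genes alone. Insm1, also a factor of intermediate progenitors, stood at 70.9 RPKM in control cortices and at 66.1 RPKM in control neurons. The ratio of Neurod6 to Eomes had a median of 4.04 (range 3.21 to 4.59) in control cortices and of 24.3 (range 15.2 to 32.2) in control neurons. Its median was 3.90 (range 2.79 to 4.07) in Phf6-/Y cortices and 23.9 (range 14.9 to 28.0) in Phf6lox/Y;Nes-creTg/+ neurons, so within each tissue the ranges of the genotypes overlapped.

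**Figure D1:**
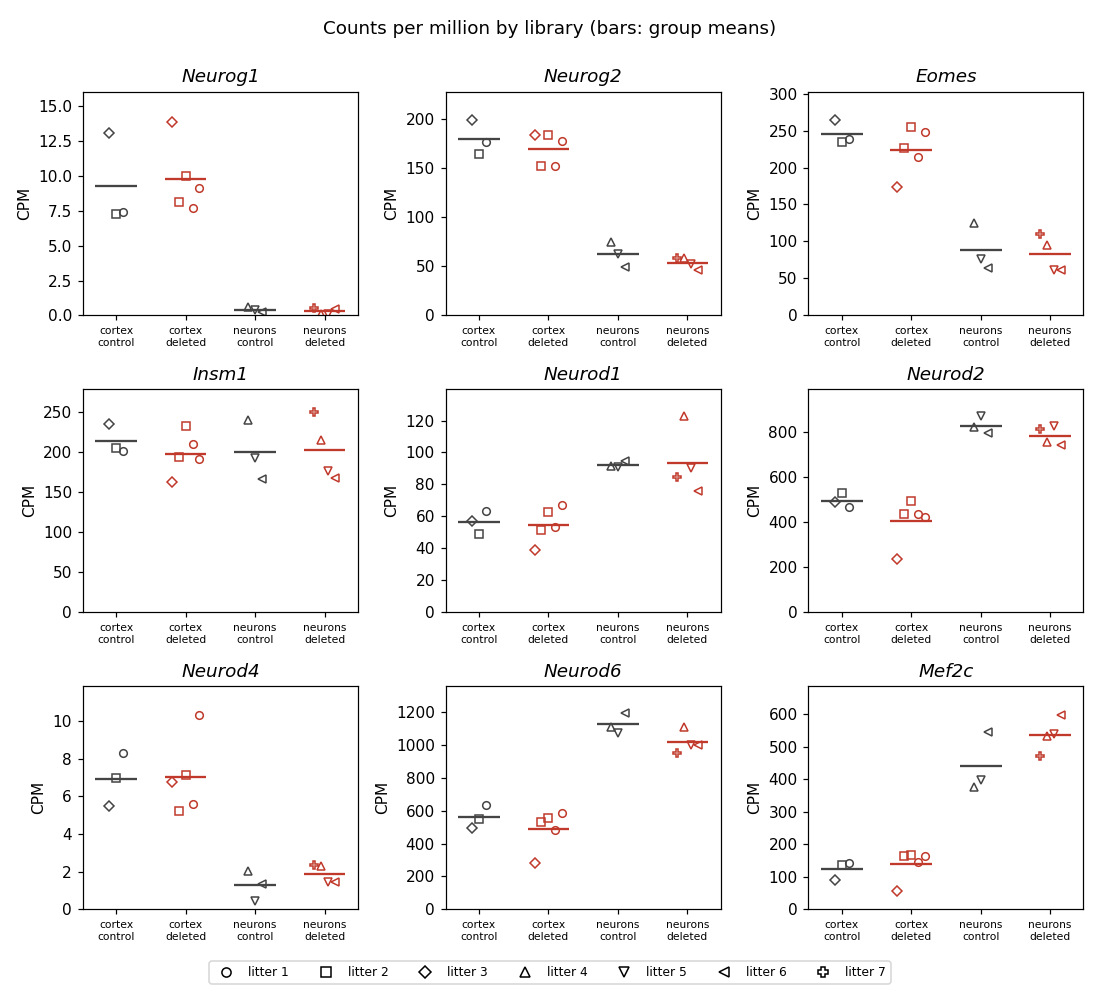
Each panel plots 1 gene, with CPM on the vertical axis from 0, the 4 groups on the horizontal axis, 1 point per library shaped by litter, and a bar at the group mean. Neurog1, Neurog2, Eomes and Neurod4 sit lower in both groups of cultured neurons than in both groups of cortices, Neurod1, Neurod2, Neurod6 and Mef2c sit higher, and Insm1 lies between 163 and 250 CPM in all 15 libraries.

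The comparison of control neurons with control cortices asked how the cascade stood in a culture of E16.5 neurons against E15.5 cortex of other litters. None of the libraries was of E16.5 cortex, so a gene said below to fall or rise differed between these groups. Neurog1, Neurog2, Eomes and Neurod4 were lower in the neurons, Neurod1, Neurod2, Neurod6 and Mef2c were higher, and Insm1 did not pass the test. Of the 9 members, 8 had an FDR below 0.05 (edgeR quasi-likelihood test, Benjamini-Hochberg adjustment over all genes tested), 4 of them higher and 4 lower in the neurons. Over all 14320 genes tested, 24.7% were higher and 26.4% lower, so a call by itself was common in this comparison, which also differed in age, in culture and in the Nes-cre transgene, and these cannot be told apart. The median log2 fold change of the members was -0.10, against -0.03 over all genes tested. Scaled by library totals in place of TMM, 17.2% of genes were higher and 34.9% lower and the median of all genes was -0.17, and the 8 members kept their calls and directions.

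Neurog2, the main proneural factor of dorsal progenitors, was at 199, 164 and 176 CPM in control cortices and at 74.9, 62.8 and 49.5 CPM in control neurons. Every cortex was above every culture, and the log2 fold change was -1.53 (SE 0.14, edgeR FDR = 6.06e-06 with Benjamini-Hochberg adjustment). Its relative Neurog1 fell furthest, by 4.47 on the log2 scale (SE 0.38), from 13.1, 7.25 and 7.42 CPM to 0.587, 0.415 and 0.219 CPM. Eomes was at 265, 235 and 238 CPM in the cortices and at 125, 76.3 and 63.9 CPM in the neurons, and fell by 1.48 on the log2 scale (SE 0.25, edgeR FDR = 0.00392). The groups of Neurog1 and Eomes did not overlap either. The share of all genes whose groups did not overlap between the tissues was not computed, so such separations are given as description only, here and below. Neurod4, the least abundant NeuroD member, fell by 2.43 (SE 0.40) on the log2 scale, from 5.51, 6.97 and 8.30 CPM to 2.02, 0.461 and 1.32 CPM.

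Insm1, which is also active in intermediate progenitors, did not follow Eomes. It was at 235, 206 and 202 CPM in control cortices and at 241, 193 and 167 CPM in control neurons, and the groups overlapped. Its log2 fold change was -0.10 with a 95% confidence interval of -0.37 to 0.16 (edgeR FDR = 0.503), an interval that ends well short of the fall of Eomes. The difference between the changes of Insm1 and Eomes was not tested as such.

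On the neuronal side, Mef2c rose most, from 91.7, 135 and 141 CPM in control cortices to 376, 398 and 545 CPM in control neurons. All 3 cultures lay above all 3 cortices, and the log2 fold change was 1.84 (SE 0.21, edgeR FDR = 0.000408). Neurod6 rose from 493, 551 and 633 CPM to 1110, 1070 and 1190 CPM (log2 fold change 1.00, SE 0.09). Neurod2 rose from 489, 531 and 470 CPM to 822, 872 and 796 CPM (log2 fold change 0.74, SE 0.08). Neurod1, an early member of the NeuroD family, rose by a similar amount to Neurod2, from 56.9, 49.0 and 63.7 CPM to 91.4, 91.1 and 94.4 CPM (log2 fold change 0.70, SE 0.10), and its control cultures were closely grouped.

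The same comparison between Phf6lox/Y;Nes-creTg/+ neurons and Phf6-/Y cortices used none of these libraries, but it was not independent of them. All deleted libraries except the culture of litter 7 were littermates of the controls. Some deleted cortices also shared a litter, and the fit held no litter term. The comparison called the same 8 genes in the same directions, 4 higher and 4 lower, against 28.0% and 31.1% of 14416 genes. Their log2 fold changes were -5.06 for Neurog1, -1.66 for Neurog2, -1.44 for Eomes and -1.88 for Neurod4. They were 0.77 for Neurod1, 0.94 for Neurod2, 1.05 for Neurod6 and 1.94 for Mef2c. Insm1 was again not called (log2 fold change 0.02, 95% confidence interval -0.25 to 0.30, edgeR FDR = 0.880). Of the 8 called genes, Neurod1 was the one whose deleted groups came closest, with 38.8 to 67.1 CPM in 5 cortices and 76.1 to 123 CPM in 4 cultures. The members' median log2 fold change was 0.02, against -0.03 over all genes tested. With library totals, 18.3% of genes were higher and 41.5% lower, with the same 8 members called, and the log2 fold change of Insm1 was -0.13.

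**Figure D2:**
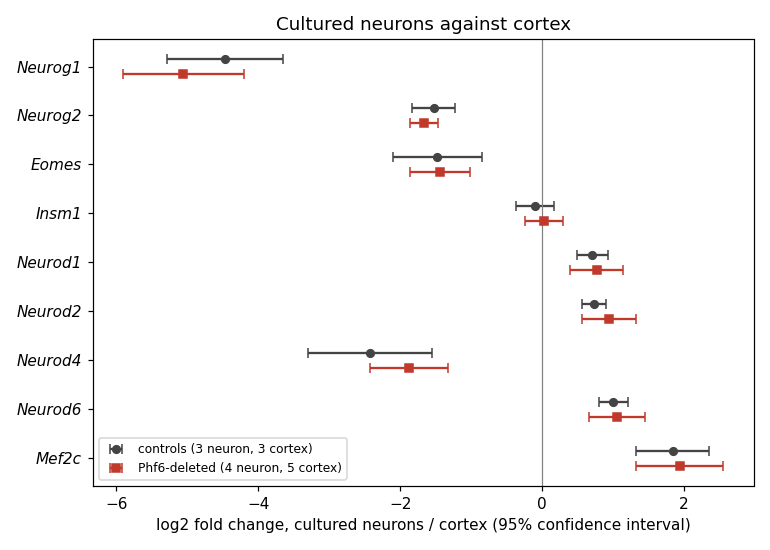
The plot gives the log2 fold change of each gene between cultured neurons and cortex on the horizontal axis, with 95% confidence intervals, for controls (circles) and for Phf6-deleted libraries (squares). Neurog1, Neurog2, Eomes and Neurod4 lie left of 0 and Neurod1, Neurod2, Neurod6 and Mef2c right of it in either genotype, while the intervals of Insm1 span 0.

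Genes of the same pathway are given by list, beside the 24.7% of all genes that were higher and the 26.4% that were lower. Of 12 radial glia and Notch genes, 12 were lower and 0 higher in control neurons than in control cortices, among them the Notch effectors Hes1 (log2 fold change -3.38) and Hes5 (-2.75) and the radial glia filaments Nes (-2.10) and Vim (-1.91), and the median of the list was -1.93. Of 12 genes that lie downstream of proneural factors, 7 were lower and 3 higher (median log2 fold change -0.62). The lower ones included the Notch ligand Dll1 (log2 fold change -0.80), the migration gene Rnd2 (-0.92) and the bHLH gene Nhlh1 (-2.51), and the microtubule gene Dcx was higher (0.90). Of 12 neuron markers 8 were higher and 3 lower, the lower ones being Bcl11b, Tbr1 and Slc17a7 (median of the list 0.54), and all 8 proliferation genes were lower (median -1.76). Among 8 tested paralogs and other neurogenic factors, 2 were higher and 5 lower, with the bHLH gene Bhlhe22 at a log2 fold change of 2.06 and Mef2a at 0.62.

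The partners of the bHLH members were divided. Of 7 E protein and Id genes, 2 were higher (Id2, log2 fold change 1.86, and Tcf4, 1.05) and 2 lower (Tcf3, -1.12, and Id4, -2.11) in control neurons, and 3 did not pass the test. With library totals the counts became 2 higher and 4 lower for these partners, 2 and 8 for the downstream genes, 7 and 3 for the neuron markers and 0 and 2 for the dorsal telencephalon genes, and those of the radial glia and proliferation lists stayed. In the Phf6-deleted libraries, 2 of these genes were higher and 4 lower. Markers of other cells moved in the same comparison. All 4 endothelial, 6 interneuron and 4 Cajal-Retzius markers tested were lower in control neurons, as were 3 of 4 microglia and 2 of 2 erythroid markers. Of 5 astrocyte and oligodendrocyte precursor markers, 1 was higher, the astrocyte marker Gfap (log2 fold change 3.96, and 4.63 between the deleted tissues). The 2 lower ones were Olig2 (-2.74) and Olig1 (-1.56). The summed markers of that list were at 54.2 to 67.9 CPM in control cortices and 23.6 to 39.3 CPM in control neurons. Of 4 dorsal telencephalon genes 1 was higher and 2 lower, and no meningeal or choroid plexus marker was called. The summed endothelial markers were at 84.4 to 180 CPM in the 8 cortices and at 1.01 to 2.35 CPM in the 7 cultures, and the part of these cells in the members' values was not tested.

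In the E15.5 cortex the comparison of Phf6-/Y with Phf6+/Y samples asked whether the cascade depends on PHF6 in the tissue. No member was called, 0 of 9 at an FDR below 0.05 (edgeR quasi-likelihood test in a fit that held litter, Benjamini-Hochberg adjustment), where 0.319% of 14750 genes were higher and 0.0678% lower. At an unadjusted p below 0.05, Neurod6 alone was lower and none was higher, with 4.77% and 5.69% of all genes past that threshold, and 0 members by DESeq2 or limma-trend had an adjusted p below 0.05. No member had groups that did not overlap, against 2.47% of genes with every deleted library above every control and 2.55% below. The median log2 fold change of the members was -0.11, against -0.00212 over all genes tested.

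The lowest values of Neurod6, Neurod2 and Mef2c in the cortex came from a single library. Neurod6 was at 493, 551 and 633 CPM in controls and at 280, 531, 558, 485 and 585 CPM in Phf6-/Y cortices. Replicate 1 of the Phf6-/Y group lay far below every other cortex. The log2 fold change was -0.33 (SE 0.13, edgeR FDR = 0.437) with all 8 libraries and -0.14 (SE 0.09) without both libraries of litter 3, from which that replicate came. The fit without litter 3, used here and below, was added after seeing the data. Within litters 1, 2 and 3, the deleted libraries differed from their control by -0.25, -0.02 and -0.82 on the log2 scale.

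Neurod2 showed the same shape, at 489, 531 and 470 CPM in controls and at 237, 438, 496, 439 and 424 CPM in Phf6-/Y cortices. Again replicate 1 was apart from the other 4. The log2 fold change was -0.41 (SE 0.17, edgeR FDR = 0.478), and -0.16 (SE 0.08) without litter 3. In all 3 litters the deleted libraries were lower, with differences of -0.12, -0.19 and -1.05 on the log2 scale. The share of all genes with the same sign in all 3 litters was not computed for either tissue. Such agreement, here and below, is description only.

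Mef2c was at 91.7, 135 and 141 CPM in controls and at 57.7, 163, 166, 144 and 163 CPM in Phf6-/Y cortices. The remaining 4 deleted cortices lay above all 3 controls, if narrowly (144 against 141 CPM), and the low library lay below all. The share of all genes that separate in this way without that library was not computed. Over all libraries the log2 fold change was -0.04 with a 95% confidence interval of -0.42 to 0.34 (edgeR FDR = 0.963). Without litter 3 it was 0.19 with an interval of 0.02 to 0.37 (edgeR FDR = 0.547), so that 1 litter decided its sign. In litters 1 and 2 the deleted samples were higher by 0.11 and 0.29 on the log2 scale, and in litter 3 the difference was -0.66.

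The progenitor factors differed little between the cortices. Neurog2 was at 199, 164 and 176 CPM in controls and at 183, 152, 183, 152 and 177 CPM in Phf6-/Y samples, with a log2 fold change of -0.06 and a 95% confidence interval of -0.23 to 0.10. Eomes was at 265, 235 and 238 CPM in controls and at 173, 226, 255, 214 and 248 CPM in Phf6-/Y samples, where the lowest value was again replicate 1 (log2 fold change -0.18, interval -0.42 to 0.07, and -0.01 without litter 3). Neurog1, at 7.25 to 13.1 CPM in controls and 7.72 to 13.9 CPM in Phf6-/Y samples, was higher in the deleted libraries in 3 of 3 litters (log2 fold change 0.20, interval -0.11 to 0.50). Insm1 (202 to 235 and 163 to 233 CPM), Neurod1 (49.0 to 63.7 and 38.8 to 67.1 CPM) and Neurod4 (5.51 to 8.30 and 5.20 to 10.3 CPM) had log2 fold changes of -0.14, -0.11 and -0.02.

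Replicate 1 of the Phf6-/Y cortices was the lowest of all 8 cortices for 6 of the 9 members, Eomes, Insm1, Neurod1, Neurod2, Neurod6 and Mef2c. The share of all genes that were lowest in that library was not computed, and some of these members varied together. The count is therefore description only. That replicate was the highest for Neurog1 at 13.9 CPM, next to the control of the same litter at 13.1 CPM. Beside the marker sums given above, it had the lowest sum of dorsal telencephalon genes (762 CPM, against 977 to 1320 CPM in the other cortices) and the lowest sum of genes downstream of proneural factors (4600 CPM, against 5170 to 5810 CPM). The part of these differences in the member values was not tested. Of the fixed lists in the cortex, 1 gene was called, the Cajal-Retzius marker Lhx5, which was higher (log2 fold change 0.77, edgeR FDR = 0.0368).

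**Figure D3:**
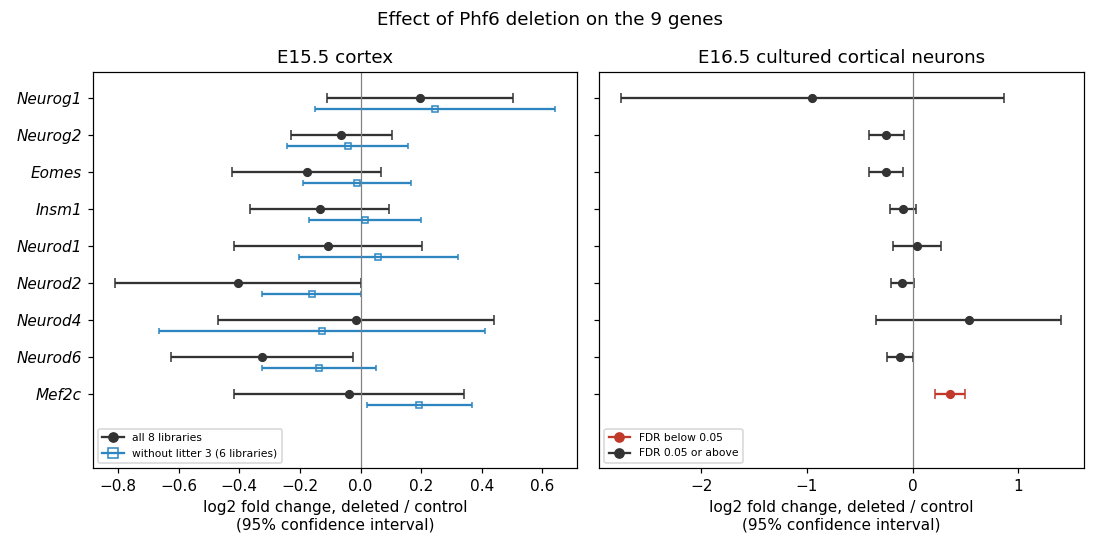
The left panel gives the log2 fold change of deletion over control in the cortex with all 8 libraries (circles) and without litter 3 (squares), and the right panel in the cultured neurons, each with 95% confidence intervals. Without litter 3 the values of Neurod2 and Neurod6 lie nearer to 0 and Mef2c moves from -0.04 to 0.19, and in the neurons Mef2c alone, at 0.36, passes the threshold.

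In the E16.5 cultured neurons, Mef2c was higher after Phf6 deletion and no other member was called. It was the 1 of 9 members with an FDR below 0.05, where 0.194% of 13909 genes were higher and 0.0791% lower. At an unadjusted p below 0.05, 1 member was higher (Mef2c) and 2 were lower (Neurog2 and Eomes), with 5.87% of all genes higher and 4.46% lower. In this comparison, too, no member had groups that did not overlap, against 3.61% of genes with the deleted libraries above and 3.62% below. The members' median log2 fold change was -0.10, against 0.000974 over all genes tested.

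Mef2c was at 376, 398 and 545 CPM in control neurons (litters 4, 5 and 6) and at 470, 532, 540 and 598 CPM in Phf6lox/Y;Nes-creTg/+ neurons (litters 7, 4, 5 and 6). The control of litter 6 lay above 3 of the 4 deleted cultures, so the groups overlapped, but in each of the 3 litters with both genotypes the deleted culture was the higher, by 0.50, 0.44 and 0.13 on the log2 scale. The fitted log2 fold change was 0.36 (SE 0.07, edgeR FDR = 0.0382, Benjamini-Hochberg adjustment, litter in the fit). Without the litter term it was 0.28 and the FDR was 0.760, and it also lost its call without control replicate 2 (FDR = 0.414) or deleted replicate 3 (FDR = 0.331), the libraries of litter 5. Over all 15 alternatives the log2 fold change lay between 0.28 and 0.47, and 12 of them had an adjusted p below 0.05 (range 1.37e-10 to 0.760).

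Genes of other cells were measured beside Mef2c, which microglia and endothelial cells can also express. Summed microglia markers were at 12.6 to 14.6 CPM in control and at 9.85 to 15.8 CPM in deleted neurons, with 0 of 4 called, and summed endothelial markers at 1.36 to 1.66 and 1.01 to 2.35 CPM. Summed Cajal-Retzius markers were at 92.1 to 138 CPM in controls and at 157 to 336 CPM in deleted neurons, groups that did not overlap. Of single genes, 3.61% had every deleted library above every control, and no such share was computed for sums. Only 1 of the 4 Cajal-Retzius markers was called, Reln (log2 fold change 0.81, edgeR FDR = 1.40e-05). Of the choroid plexus markers 1 could be tested and was called, Ttr (log2 fold change 2.84, at 0.403 to 2.12 CPM in controls and 2.43 to 22.3 CPM in deleted neurons). The part of these cells in the value of Mef2c was not tested. Other MEF2 genes, picked for their family after their values were seen, were not called, with log2 fold changes of 0.17 for Mef2a (edgeR FDR = 0.458) and 0.14 for Mef2d (FDR = 0.552).

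Neurog2 and Eomes were lower in each litter that had both genotypes but missed the threshold. Neurog2 was at 74.9, 62.8 and 49.5 CPM in control neurons (litters 4, 5 and 6) and at 58.0, 58.7, 51.7 and 46.1 CPM in deleted neurons (litters 7, 4, 5 and 6). The groups overlapped, and the within-litter differences were -0.35, -0.28 and -0.10 on the log2 scale, for a fitted log2 fold change of -0.25 (SE 0.08, edgeR FDR = 0.240). Eomes was at 125, 76.3 and 63.9 CPM in control and at 110, 95.8, 62.0 and 61.8 CPM in deleted neurons. The cultures of litters 4 and 7 were the highest in either group, and within litters it differed by -0.38, -0.30 and -0.05, for a fitted log2 fold change of -0.25 (SE 0.08, edgeR FDR = 0.220).

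As for Mef2c, the litter 6 cultures held these values nearest to 0. Without the control or the deleted culture of litter 6, the FDR of Neurog2 was 0.0163 or 0.0289 and that of Eomes 0.00124 or 0.00493. Of the genes known downstream of proneural factors, 0 of 12 were called, and the median log2 fold change was -0.11. The radial glia list (0 of 12 called, median -0.10) and the proliferation list (0 of 8 called, median -0.15) had medians on the same side of 0. Their sums overlapped between genotypes, at 609 to 819 against 555 to 752 CPM for radial glia genes and at 330 to 521 against 302 to 483 CPM for proliferation genes.

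The postmitotic NeuroD factors hardly moved in the cultures. Neurod6 was at 1110, 1070 and 1190 CPM in control neurons and at 951, 1110, 1000 and 1000 CPM in deleted neurons, with overlapping groups and a log2 fold change of -0.12 (95% confidence interval -0.24 to 0.01, edgeR FDR = 0.510). Neurod2 was at 822, 872 and 796 CPM and at 813, 757, 826 and 742 CPM, lower in 3 of 3 litters by about the same small amount (log2 fold change -0.10, interval -0.21 to 0.01, edgeR FDR = 0.535). Neurod1, at 91.1 to 94.4 CPM in controls, ranged more widely in deleted neurons, from 76.1 CPM in litter 6 to 123 CPM in litter 4 (log2 fold change 0.04, interval -0.19 to 0.27). Insm1 was at 167 to 241 and 168 to 250 CPM (log2 fold change -0.09). With 10 to 62 reads per library, Neurod4 had a log2 fold change of 0.53 with an interval of -0.34 to 1.41, and Neurog1 with 2 to 16 reads one of -0.95 with an interval of -2.76 to 0.86. Both intervals span 0, and the within-litter differences of Neurog1 had either sign.

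**Figure D4:**
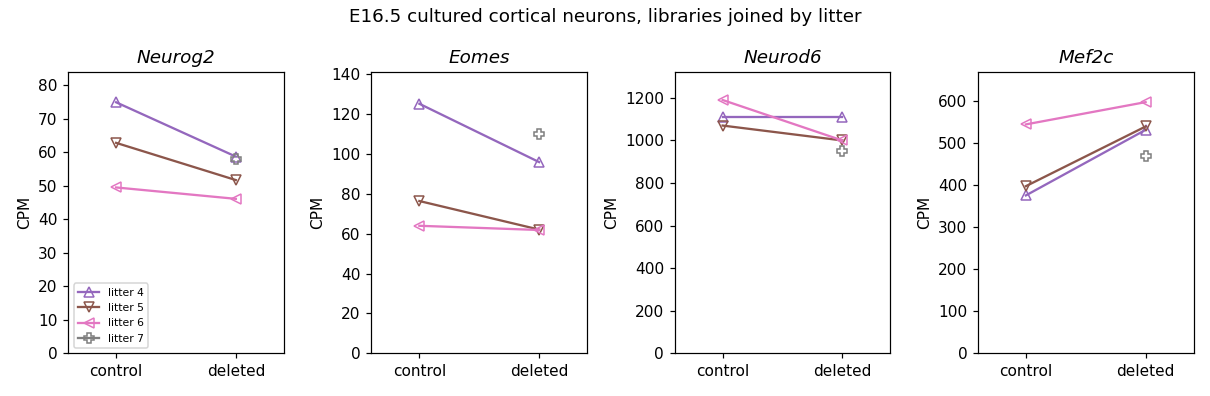
Each panel plots the CPM of 1 gene in the 7 neuron cultures, control on the left and deleted on the right, with lines joining the 2 cultures of a litter and litter 7, which has no control, as a single point. All 3 lines rise for Mef2c and fall for Neurog2 and Eomes, and the line of litter 6 is the flattest of the 3 for each of these genes.

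Whether Phf6 deletion acted differently in the cultures and in the cortex was tested as an interaction over all 15 libraries. The deletion was germline in the cortices and made by Nes-cre in the cultures, which also differed in age. These differences and that of tissue and culture cannot be told apart. No member passed the threshold (0 of 9, edgeR FDR of 0.954 or above for each), where 0.00667% of 15001 genes were higher and 0.00667% lower. For Mef2c the effect in the neurons exceeded that in the cortex by 0.39 on the log2 scale with a 95% confidence interval of -0.11 to 0.88. The rise of Mef2c was therefore called in the cultures and not in the cortex, but the effects were not shown to differ. At an unadjusted p below 0.05 the count of members was also 0, with 2.27% of all genes higher and 2.92% lower past that threshold, and it was 0 by an adjusted p with DESeq2 and limma-trend. For Neurog2 the difference was -0.19 (interval -0.43 to 0.05) and for Eomes -0.08 (interval -0.42 to 0.27).

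Litters differed at equal genotype, and in the cultures, among the 9 members, they did so most for the intermediate progenitor factors. In the neurons, 4 of 9 members had an FDR below 0.05 for litter (edgeR quasi-likelihood test, Benjamini-Hochberg adjustment), against 5.01% of all genes, and these were Eomes (FDR = 0.000161), Insm1 (FDR = 0.00162), Mef2c (FDR = 0.0288) and Neurog2 (FDR = 0.0345). Eomes and Insm1 went together, both at their highest in litters 4 and 7 (95.8 to 125 CPM for Eomes, 215 to 250 CPM for Insm1) and lower in litters 5 and 6 (61.8 to 76.3 and 167 to 193 CPM), with no overlap in either gene. This grouping of litters was made after the values were seen, and the share of all genes that separate in this way was not computed. Mef2c had its highest values within each genotype in litter 6. In the cortex 0 of 9 members were called for litter, against 1.70% of genes, although Neurog1, at 13.1 and 13.9 CPM in the libraries of litter 3 and at 7.25 to 10.0 CPM in the others, was next to the threshold (edgeR FDR = 0.0504). What else differed between litters is not given in the labels.

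As a description, the genes most like each member were sought by Pearson's r of log2-CPM over the 15 libraries, after subtraction of the mean of each tissue. Points of a litter share that litter, so no p was computed. Eomes was most like Zfp703 (r = 0.92), Insm1 (r = 0.918) and the cell cycle inhibitor Cdkn2c (r = 0.911), and Insm1 was likewise most like Zfp703 (r = 0.944) and Eomes. Neurod2 was most like Kcnj11 (r = 0.969), Neurod6 like Gpr21 (r = 0.962) and Zbtb18 (r = 0.944), and Mef2c like Adamts3 (r = 0.979), Lmo7 (r = 0.96) and Acvr1 (r = 0.959). Among the members themselves, Neurod2 and Neurod6 (r = 0.848) and Neurod6 and Mef2c (r = 0.763) varied together, and Neurog1 and Mef2c varied in opposite directions (r = -0.661), patterns to which the low Phf6-/Y cortex of litter 3 belongs. Neurog2 was most like Arl2bp (r = 0.943) and the cytokinesis gene Racgap1 (r = 0.912), Neurod1 like the cell cycle inhibitor Cdkn1b (r = 0.878), Neurog1 like Rassf7 (r = 0.849) and Neurod4 like Setd2 (r = 0.887). Neurog1 and Neurod4 were close to the floor in the neurons, so their r rests partly on few reads. The genes most like a member have the largest r of all genes compared, and no background for such maxima was computed.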

How the data were processed

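RNA was sequenced from 15 libraries, 8 of E15.5 cortex and 7 of E16.5 cultured cortical neurons, and every library was used. The authors aligned paired-end reads to mm10 with Rsubread and deposited raw counts per Entrez gene from featureCounts, without normalization. The 15 per-sample files held the same values as the series table.

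From these counts, 1029 of 27179 rows without an identifier were left out (0.349% to 0.605% of the reads of a library), as were 875 identifiers not matched to RefSeq GRCm38.p6, 835 pseudogenes, 35 ribosomal RNA genes and 1273 genes with predicted names, which left 23132 genes. Low counts were filtered with filterByExpr, libraries were scaled by TMM, and each comparison was tested with edgeR 4.0.16 (robust quasi-likelihood F test, Benjamini-Hochberg adjustment over all genes tested). Genotype fits held litter as a term, tissue fits held no covariate, and the interaction was fitted over all 15 libraries. DESeq2 1.42.0, limma-trend (limma 3.58.1), other scalings, no filter, and fits without the litter term or without each library were alternatives. CPM and RPKM levels used TMM sizes over all 15 libraries, and RPKM the deposited gene lengths.

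Litter comes from the labels. Deviations from group means of same-litter pairs correlated at -0.05 to 0.39 in the cortex (5 pairs) and at 0.16 to 0.35 in the neurons (3 pairs). Pairs from different litters correlated at -0.35 to 0.06 in the cortex (10 pairs) and at -0.33 to 0.29 in the neurons (9 pairs). The ranges overlapped in both tissues. The labels do not say what else a replicate shares, so p-values measure the spread between these samples. The 9 members and the gene lists were chosen with earlier results of these data known. The text names all 9 members, called genes of some lists, and up to 3 of the genes most like a member. Some list genes were named for their direction, family or level and not for the smallest p.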

Additional observations from a re-analysis of the deposited data

Results flagged for a closer look

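Within the groups of 4 or 5 libraries, the lowest or highest value of each member was compared with its neighbours by the gap to the nearest value over the whole range (Dixon's test), in 18 pairs of a member and a group. Chance alone sets apart about 1 in 20 groups. A pair of values stood apart, both in replicate 1 of the Phf6-/Y cortices (litter 3). Mef2c was at 57.7 CPM there, with the nearest library at 144 CPM and a gap of 0.797 of the range, above the critical value of 0.71. Neurod2 was at 237 CPM, with the nearest library at 424 CPM and a gap of 0.722. The gap of Neurod6, at 280 CPM against 485 CPM, was 0.672 and below the critical value.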

How the results depend on the processing

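The count of members past an FDR of 0.05 stayed at 0 in every alternative for genotype in the cortex and for the interaction, and at 8 in every alternative for either tissue comparison. For genotype in the neurons the count of 1 became 2 without the filter on low counts (Eomes and Mef2c) and 0 without the replicate block (the litter term), and it ranged from 0 to 3 with single libraries left out, being 0 without either library of litter 5 and 3 without either of litter 6. For litter in the cortex the count of 0 became 3 with DESeq2 and 1 without the filter or with all identifiers, and ranged from 0 to 3, being 3 without control replicate 1 and 1 without Phf6-/Y replicate 5. For litter in the neurons it ranged from 2 (without control replicate 2) to 5. Without the replicate block, log2 fold changes changed sign for Neurod4 (0.0102) and Mef2c (0.17) in the cortex, Insm1 (0.0186) in the neurons and Eomes (0.0370) in the interaction. Without both libraries of litter 3, an alternative added after seeing the data, signs changed for Insm1 (0.0145), Neurod1 (0.0582) and Mef2c (0.19) in the cortex, for Insm1 (-0.11) and Neurod1 (-0.0269) in the interaction and for Insm1 (-0.0428) between the deleted tissues, where library totals gave -0.13. With single libraries left out, signs changed within the ranges -0.23 to 0.0220 for Insm1, -0.28 to 0.0659 for Neurod1, -0.16 to 0.11 for Neurod4 and -0.22 to 0.20 for Mef2c in the cortex, and -0.16 to 0.22 for Neurod1 in the neurons. The ranges were -0.24 to 0.0416 for Eomes, -0.11 to 0.14 for Insm1 and -0.0588 to 0.32 for Neurod1 in the interaction, and -0.26 to 0.0283 and -0.0905 to 0.11 for Insm1 between control and between deleted tissues. Over all genes, the 57 calls for genotype in the cortex became 199 with DESeq2, 114 without the filter, 1 without the litter term, 10 without litter 3 and 7 to 81 with single libraries left out. In the neurons 38 became 62 with DESeq2, 297 without the filter, 73 with library totals, 1 without the litter term and 16 to 494. For the interaction 2 became 12 with DESeq2, 5 without the filter, 0 without the litter term, 1 without litter 3 and 0 to 4. For litter in the cortex 251 became 830 with DESeq2, 482 without the filter, 0 without litter 3 and 16 to 586, and in the neurons 697 became 1961 without the filter and 488 to 2398. The cause was not tested. No genotype value that changed sign was called. Of 1020 member values under alternatives, 959 kept their direction and their side of the threshold. Neurog1 and Neurod4 had 2 to 62 reads per library in the neurons.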
